A study of Homo sapiens with 20 samples.

Results

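The mitochondrial 16S rRNA is the product of RNR2, a gene of the mitochondrial genome (gene ID 4550) that lies at positions 1671 to 3229 of chromosome MT between the tRNA genes TRNV and TRNL1 in RefSeq's annotation of GRCh38.p14. All 1559 positions of this gene were taken, of 16570 mitochondrial positions listed, and 1 of 37 mitochondrial genes is thus described here. Position 3067, base 1397 of the RNA, is the known target of the pseudouridine synthase RPUSD4, and it was set against the other 1558 bases. The gene and the site are set by annotation and by published base number, not by a threshold on the levels. The position numbers themselves were read with the level at this site in view, as given below.

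The cells were K562, a human chronic myelogenous leukaemia line. Mitochondria were isolated, and their RNA was treated with 0.5 M CMC, a carbodiimide whose adduct on pseudouridine survives the alkaline wash and hinders the reverse transcriptase there. The 14 CMC-treated libraries fell into 4 groups: 4 wildtype controls carrying a non-targeting sgRNA, 4 with an NME6 KO, 3 with RPUSD4 knockdown, and 3 with the NME6 KO plus a WT-NME6 cDNA (rescue). The labels do not say how RPUSD4 was knocked down, whether the lines were single clones, or what drove the cDNA. They do not say either whether replicates were separate cultures or whether the groups were prepared together. P-values therefore measure only the spread between these libraries, and preparation and group cannot be told apart. The 6 untreated samples of the series (2 control, 2 NME6 KO, 1 RPUSD4 knockdown and 1 rescue) were not analysed on their own.

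16S rRNA is the RNA of the large subunit of the mitochondrial ribosome, which translates the proteins encoded by mitochondrial DNA. A pseudouridine is a uridine whose base is attached to the sugar through carbon instead of nitrogen. RPUSD4 makes this change at base 1397, in the region that forms the peptidyl transferase centre, and the enzyme is known to be needed for normal levels of 16S rRNA. NME6, of the nucleoside diphosphate kinase family, is found in mitochondria and associates with RCC1L, a partner of the pseudouridine synthases there.

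Each library carried 1 signed value per position, CMC-treated minus untreated, which is called the level here and read as percentage points of altered reads. That unit was inferred from the values. The position numbers were taken to be GRCh38 coordinates, since the known RPUSD4 base then falls on the highest position of RNR2. The list ends at 16571, past the end of that sequence, and an offset in the numbering, which would shift every base named here, was not tested against a sequence. Read depth is unknown, and a value of exactly 0 may mean that a base had no reads. Within 16S rRNA, 15.5% to 31.1% of bases were listed at 0 in a library, against 85.7% to 99.8% of the 954 bases of 12S rRNA (RNR1), the RNA of the small subunit. The rescue libraries had the fewest, 15.5% to 15.9%, and the control libraries had 17.5% to 29.2%. Control replicate 1 and NME6 KO replicate 1 stood apart from their groups over the whole rRNA: their mean over the other 1558 bases was 0.0771 and 0.0775 points, while the remaining 12 libraries lay between 0.116 and 0.165 points. Where the calls, or the separation of groups at a named base, moved without these 2 libraries, both values are given. Shares of positions without overlap were not recounted.

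The RPUSD4 site was low in the knockdown, intermediate in control and NME6 KO cells and high in the rescue. In the control libraries its level was 14.1, 14.9, 13.8 and 15.8 points. The NME6 KO libraries read 17.5, 15.4, 14.3 and 13.3 points, on both sides of the control range. The RPUSD4 knockdown libraries read 9.25, 10.2 and 9.30 points, each below every library of the other 3 groups. The rescue libraries read 22.1, 22.9 and 23.3 points, each above every other library. The order of the group means was 9.59 ± 0.549 (SD, n = 3) in the knockdown, 14.7 ± 0.911 (n = 4) in control, 15.1 ± 1.81 (n = 4) in the NME6 KO and 22.8 ± 0.599 points (n = 3) in the rescue. Control and NME6 KO, neighbours in that order, did not differ beyond their spread.

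**Figure D1:**
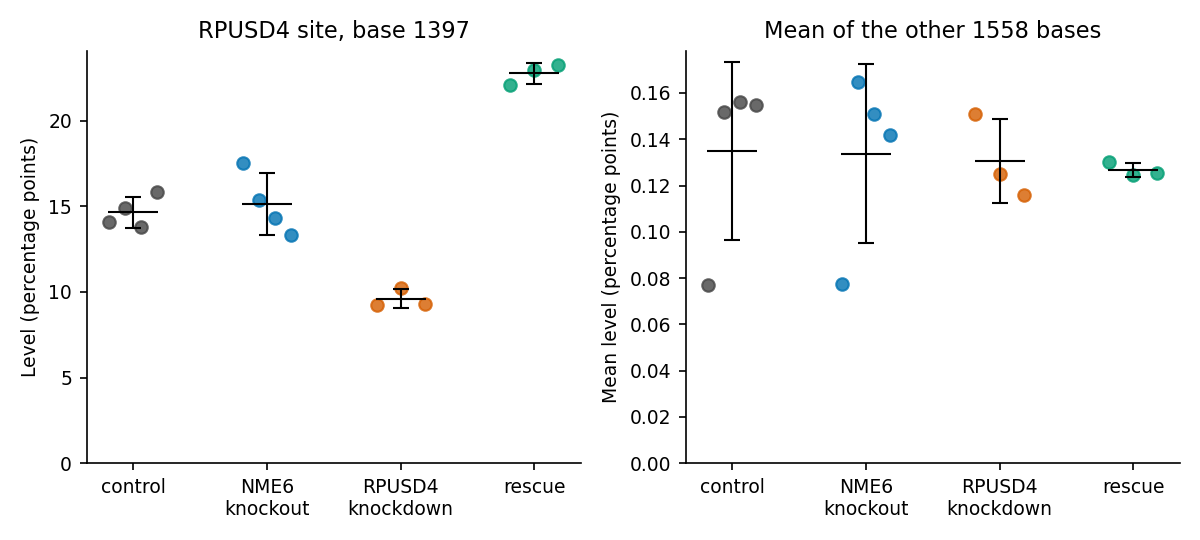
Level at the RPUSD4 site (left) and mean level over the other 1558 bases of 16S rRNA (right), in percentage points, by group; points are libraries, and the bar is the group mean ± SD. At the site the 3 knockdown libraries lie lowest (9.25 to 10.2 points) and the 3 rescue libraries highest (22.1 to 23.3 points). The means over the other bases overlap between all groups. Without the low first replicates of control and NME6 KO, the knockdown and rescue lie below control and the rescue below the NME6 KO. The other pairs of groups still overlap then.

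Differences were tested with limma across 149 mitochondrial positions whose mean level over the 14 libraries was 1 point or more, with Benjamini-Hochberg adjustment over all of them. In RPUSD4 knockdown cells the site fell by 5.06 points (SE 0.940, 95% interval -7.12 to -3.00; limma adjusted p = 0.0298) to 65.5% of the control level. It was the single called position of the 149 (0.671%), but 7 were called without both first replicates and 6 with library weights, the site among them each time. That call was lost without control replicate 2, without control replicate 4, without knockdown replicate 1 and without knockdown replicate 3 (limma adjusted p = 0.0835, 0.122, 0.109 and 0.0577), although the difference stayed between -5.37 and -4.67 points. It was also lost with scaled libraries, with a median filter and when the fit held just these 2 groups (limma adjusted p = 0.624, 0.0603 and 0.720). The untreated values subtracted in each group cannot be told apart from the CMC values in this difference.

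At the site the NME6 KO minus control was 0.487 points (SE 0.870, 95% interval -1.42 to 2.40; limma adjusted p = 0.988). No position was called in that comparison (limma, 0 of 149, 0%). Its sign rested on the replicate that stood apart: without NME6 KO replicate 1 the difference was -0.310 points, and without the first replicates of both groups -0.496 points.

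In the rescue the site rose by 7.63 points over the NME6 KO (SE 0.940, 95% interval 5.56 to 9.69; limma adjusted p = 0.00066), to 150% of its level. It also rose by 8.11 points over control (95% interval 6.05 to 10.2; limma adjusted p = 0.00038), to 155%. Neither rise passed with libraries scaled by their mean over untested positions (limma adjusted p = 0.113 and 0.151). Over all tested positions 5 (3.36%) were called in the first and 4 (2.68%) in the second of these comparisons. Without both first replicates 22 and 12 positions were called, and with library weights 28 and 29. Comparisons that share the control or the NME6 KO libraries are given side by side and are not independent of each other. At this site alone the exact two-sided permutation p was 0.0571 for the knockdown against control and for both rescue comparisons, which is the smallest that 4 against 3 libraries allow, and 0.686 for the NME6 KO against control.

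Within the RNA the site stood far above every other base, in every group. It was the highest of the 1559 positions in all 14 libraries, knockdown included. The high level here was also the ground for reading the numbers as GRCh38 coordinates, so this rank does not test where the site lies. The second-highest level ranged from 1.48 points in control replicate 1 to 4.09 points in knockdown replicate 3, and the site exceeded it by a factor of 2.27 (knockdown replicate 3) to 12.5 (rescue replicate 2). The second place was not held by a fixed base: it fell to 9 different positions, and only positions 1791, 1975 and 2141 held it in more than 1 library. Over the whole mitochondrial genome the site ranked 1 in the 3 rescue libraries, 2 or 6 in control, 2 to 12 in the NME6 KO and 2 to 10 in the knockdown.

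**Figure D2:**
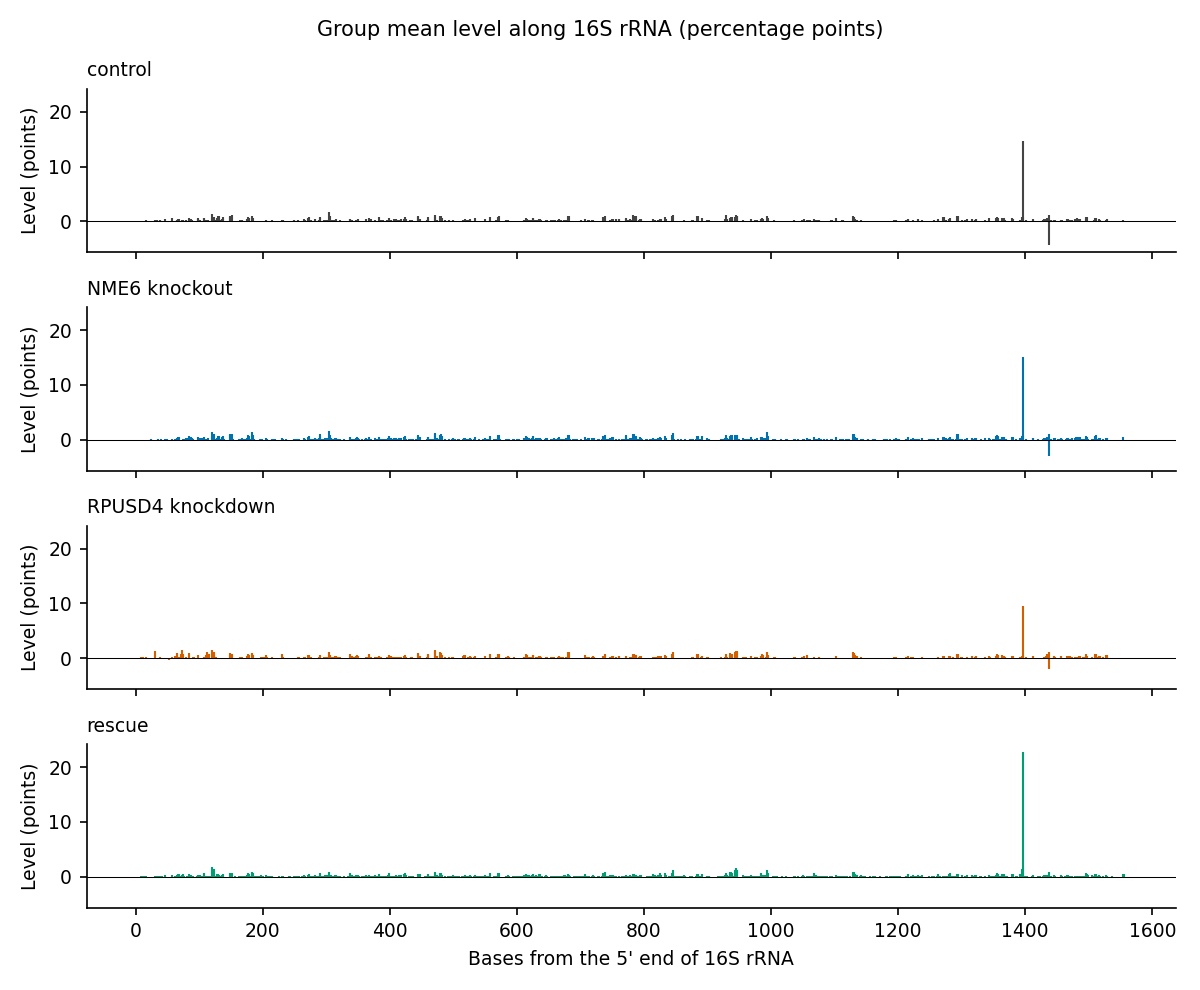
Group mean level in percentage points (vertical axes) along 16S rRNA, by bases from its 5′ end, for the 4 groups. The tall line is base 1397, from 9.59 points in the knockdown to 22.8 in the rescue, and the line below 0 near it is base 1437.

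The mean over the other 1558 bases did not share the order of the groups at the site. Their mean was 0.135 ± 0.0386 points (SD, n = 4) in control, 0.134 ± 0.0386 in the NME6 KO, 0.131 ± 0.0181 in the knockdown and 0.127 ± 0.00310 in the rescue. With all libraries the groups overlapped in every comparison, with exact permutation p = 0.914 for the knockdown against control, 0.886 for the NME6 KO against control, 0.800 for the rescue against the NME6 KO and 0.743 for the rescue against control. Most of that overlap came from the 2 first replicates. Without control replicate 1 every knockdown and rescue library lay below the control libraries, with differences of -0.0236 and -0.0274 points. Without NME6 KO replicate 1 every rescue library lay below the NME6 KO libraries, by -0.0257 points on average. The exact permutation p was 0.100 in each of these 3 cases, the smallest that 3 against 3 libraries allow. The level at the site minus this mean, taken within each library, was 9.46 ± 0.555 points in the knockdown, 14.5 ± 0.897 in control, 15.004 ± 1.84 in the NME6 KO and 22.6 ± 0.602 in the rescue. Knockdown minus control was -5.05 points on this measure, the NME6 KO minus control 0.488, the rescue minus NME6 KO 7.63 and the rescue minus control 8.12 points. The exact permutation p was 0.0571, 0.686, 0.0571 and 0.0571, and adjusted by Benjamini-Hochberg for these 4 tests 0.0762, 0.686, 0.0762 and 0.0762.

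As a share of all positive levels in 16S rRNA, the site held 3.72%, 4.86% and 4.74% in the knockdown libraries and 9.74%, 10.5% and 10.5% in the rescue libraries. In control it held 10.3%, 5.78%, 5.23% and 6.02%, and in the NME6 KO 12.5%, 5.54%, 5.63% and 5.52%. The first replicates of these last 2 groups thus reached rescue shares, with a site level (14.1 and 17.5 points) far below that of the rescue and a small sum over the other bases. Bases other than the site at 1 point or more numbered 3, 40, 44 and 38 in control, 2, 39, 39 and 32 in the NME6 KO, 35, 23 and 24 in the knockdown and 15, 13 and 15 in the rescue. The rescue libraries, highest at the site, had fewer such bases than all libraries of the other groups except the 2 first replicates.

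The level at the site was accompanied by a shoulder on its 5′ side. Positions 3062 to 3066 were above 0 in all 14 libraries, and their mean exceeded that of positions 3068 to 3072 in each of them. This 5′ mean was 0.634, 0.382, 0.432 and 0.549 points in control, 0.463, 0.513, 0.445 and 0.549 in the NME6 KO, 0.383, 0.247 and 0.283 in the knockdown and 0.836, 1.01 and 0.896 in the rescue. As at the site, the rescue libraries lay above all others, whereas knockdown replicate 1 (0.383) overlapped control replicate 2 (0.382). Relative to the site the shoulder was alike in size in all groups, 3.42% ± 0.814 of the site's level in control, 3.30% ± 0.623 in the NME6 KO, 3.20% ± 0.873 in the knockdown and 4.01% ± 0.339 in the rescue. On the 3′ side the mean of 5 bases ranged from 0.00819 to 0.113 points over all libraries. The one base there with more was position 3071, 4 bases from the site, which had 0.187 ± 0.108 points in control, 0.228 ± 0.0936 in the NME6 KO, 0.225 ± 0.135 in the knockdown and 0.172 ± 0.0189 in the rescue, with all groups overlapping.

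Most of the shoulder lay in the 2 bases next to the site. Position 3066 read 0.959, 0.555, 0.826 and 0.953 points in control and 0.961, 0.844, 0.718 and 0.974 in the NME6 KO. In the knockdown it read 0.740, 0.405 and 0.359 points, and in the rescue 1.57, 1.84 and 1.45 points. Position 3065 read 0.911, 0.688, 0.799 and 1.01 points in control and 0.897, 0.739, 0.574 and 0.846 in the NME6 KO. Its knockdown values were 0.446, 0.480 and 0.436 points, below all control and NME6 KO libraries, and its rescue values were 1.35, 1.64 and 1.53 points, above them. Of the 2541 mitochondrial positions with a value other than 0 in every library, 4.53% were lower without overlap in the knockdown than in control. In the rescue 5.19% were higher than the NME6 KO and 4.21% higher than control in this way. One or the other of these bases was the highest within 10 bases of the site, the site aside, in all 14 libraries.

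Both were under the mean level of 1 point and entered a test only with the filter lowered to 0.5 points, which admitted 858 positions. There position 3065 differed by -0.397 points between knockdown and control (limma adjusted p = 0.482), by 0.742 between the rescue and the NME6 KO (0.0529) and by 0.655 between the rescue and control (0.0839). Position 3066 differed by -0.322 (limma adjusted p = 0.623), 0.746 (0.0879) and 0.797 points (0.0810) in the same comparisons. None passed. At that filter 0 of 858 positions (0%) were called for the knockdown and for the NME6 KO against control, 0.816% for the rescue against the NME6 KO and 0.583% for the rescue against control. Of these, 1 position of 16S rRNA was called in each rescue comparison, the site itself. Neighbouring bases are read from the same fragments and are not independent measurements.

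**Figure D3:**
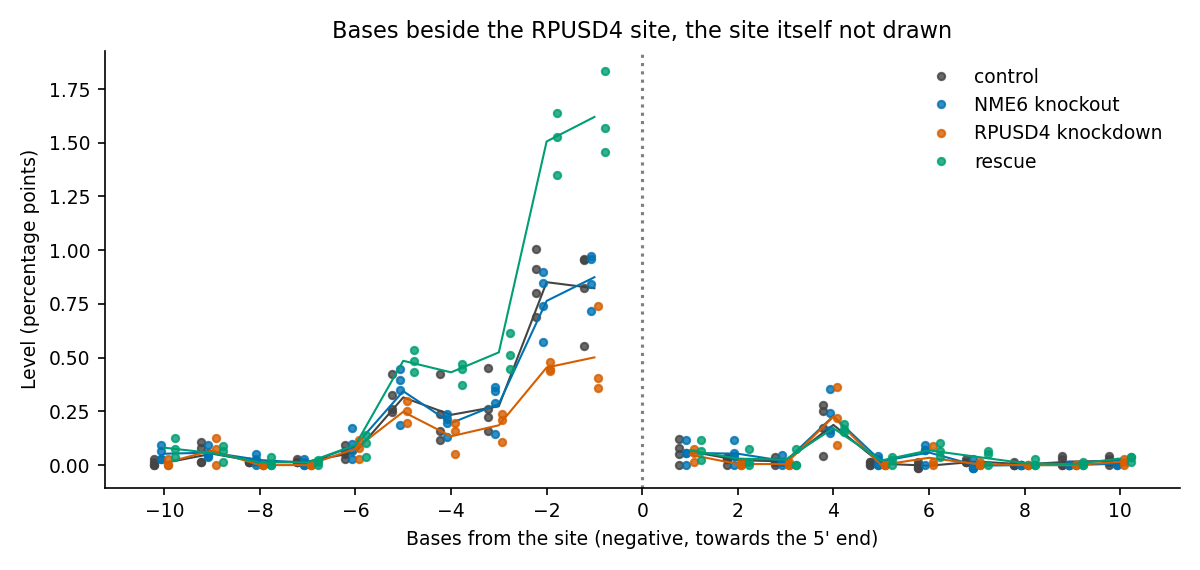
Level in percentage points (vertical axis) at the 10 bases on each side of the RPUSD4 site, which is marked by the dotted line and not drawn; points are libraries and lines join group means. The 5 bases before the site are raised in all groups, most in the rescue, where the base next to it reads 1.45 to 1.84 points, and the bases after it lie near 0 apart from the fourth.

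Besides the site, 14 bases of 16S rRNA passed the level filter: positions 1791 to 1793, 1854, 1975, 2141, 2515, 2614 to 2617, 2664, 2799 and 3108. The other 1544 bases did not reach it. None of the 14 was called in any of the 4 comparisons (limma, 0 of 14), and none had an unadjusted limma p under 0.05. Calls were rare over all 149 tested positions too, the site included. They made up 0.671% for the knockdown and 0% for the NME6 KO against control. For the rescue they were 3.36% against the NME6 KO and 2.68% against control. The count of 0 of 14 thus does not set these bases apart. Their smallest limma adjusted p was 0.593, 0.768, 0.385 and 0.640 in the 4 comparisons in this order. In the knockdown 12 of them had a higher and 2 a lower mean than in control, with a median difference of 0.147 points against 0.126 over all 149 tested positions. For the NME6 KO against control the split was 8 higher and 6 lower (median 0.0597 against 0.131 points). For the rescue against the NME6 KO it was again 8 and 6, with a median of 0.217 points where all tested positions had -0.403. For the rescue against control it was 9 and 5, with a median of 0.157 points against -0.153. These splits rested partly on the 2 libraries that stood apart. Without both first replicates they were 7 higher and 7 lower for the knockdown, 9 and 5 for the NME6 KO, 5 and 9 for the rescue against the NME6 KO and 8 and 6 for the rescue against control.

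**Figure D4:**
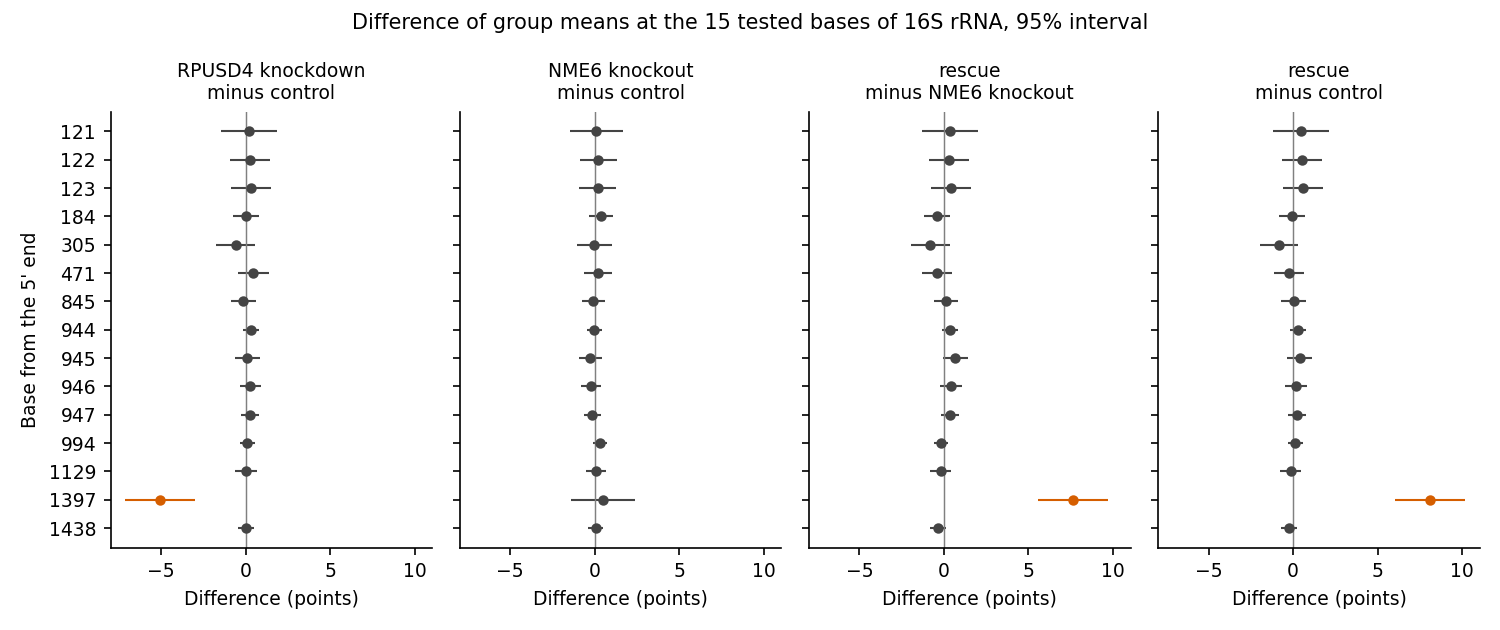
Difference of group means with its 95% interval (horizontal axis, percentage points) at the 15 tested bases of 16S rRNA, named by their number from the 5′ end, in the 4 comparisons; orange marks limma adjusted p under 0.05. Base 1397 is orange in the knockdown comparison (-5.06) and both rescue comparisons (7.63 and 8.11), and the intervals of the other 14 bases include 0 throughout.

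Among these 14, the largest difference in the knockdown, the rescue against the NME6 KO and the rescue against control was at position 1975 (base 305). It read 0.591, 2.25, 1.53 and 2.33 points in control and 0.421, 2.35, 2.08 and 1.71 in the NME6 KO. The knockdown libraries read 1.09, 1.33 and 0.811 points and the rescue libraries 0.888, 0.844 and 0.789 points. The first control and NME6 KO replicates lay below the rescue and the others above it, so the groups overlapped. Without control replicate 1 the control libraries (1.53 to 2.33 points) all lay above the knockdown libraries (at most 1.33) too. The knockdown differed from control by -0.599 points with all libraries (limma adjusted p = 0.733). Leaving out both first replicates made this -0.961 points (limma adjusted p = 0.0936). The rescue differed by -0.801 points from the NME6 KO (limma adjusted p = 0.551) and by -0.835 from control (limma adjusted p = 0.640). Without both first replicates the differences were -1.21 and -1.20 points and passed (limma adjusted p = 0.0229 and 0.0203). With library weights they were -1.24 and -1.15 points and also passed (limma adjusted p = 0.0254 and 0.00827).

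Position 2664 (base 994) was the tested base whose NME6 KO libraries all lay above control. It read 0.955, 1.16, 1.03 and 1.13 points in control against 1.57, 1.25, 1.34 and 1.30 in the NME6 KO, a difference of 0.298 points (limma adjusted p = 0.768). With all libraries this was 1 of 14 tested bases higher without overlap, and none was lower, where 3.36% and 0.671% of all tested positions were. Without control replicate 1 the NME6 KO lay below control at positions 2615 and 2616. It read at most 1.30 and 1.07 points there, and the remaining control libraries at least 1.39 and 1.12. For the knockdown against control none of the 14 was free of overlap in either direction with all libraries. Over all tested positions 3.36% were higher and 2.68% lower. The rescue reads at position 2664 were 1.09, 1.26 and 1.24 points, within the range of the other groups.

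The 10 highest control means in 16S rRNA were the site and 9 bases between 1.09 and 1.68 points, so the fall from the first to the second place was steep and the rest lay close together. Beside tested bases named here, these were positions 1822, 2453 and 2599, which missed the filter over all libraries. Position 2453 (base 783) read 0.682, 1.14, 1.17 and 1.37 points in control and 0.702, 1.12, 1.04 and 1.15 in the NME6 KO. Its rescue libraries, 0.576, 0.513 and 0.610 points, lay below all of these, and its knockdown libraries ranged from 0.411 to 1.14. Such a separation was common. Of the 2541 mitochondrial positions with a value other than 0 in every library, 12.8% were lower in the rescue than in control without overlap. Against the NME6 KO 12.9% were.

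Position 2141 (base 471) read 0.292, 1.57, 1.52 and 1.17 points in control and 1.49, 1.71 and 1.60 in the knockdown, a difference of 0.461 points (limma adjusted p = 0.733). Its NME6 KO libraries ranged from 0.425 to 1.97 points and its rescue libraries from 0.818 to 1.04. Of the 14 bases, the neighbours 1791 to 1793 varied most between replicates of the NME6 KO and of the rescue. At position 1791 the NME6 KO libraries ran from 0.165 to 3.03 points and the rescue libraries from 0.133 to 2.79, so that its group differences (0.101 to 0.472 points in size) lay well inside the spread. Position 1854 (base 184) had the largest NME6 KO difference of the 14, with 0.391, 1.20, 1.11 and 1.32 points in control and 0.620, 2.28, 1.12 and 1.48 in the NME6 KO (difference 0.368, limma adjusted p = 0.809). Its rescue libraries read 0.843, 1.15 and 0.847 points.

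The other known modified bases of 16S rRNA carry base or ribose methylation, not pseudouridine. Position 2617 (base 947) is methylated at N1 of adenosine by TRMT61B. It belonged to a run of 4 adjacent tested bases, 2614 to 2617. Position 2615 had the highest mean of the run in every group. That mean was 1.23 points in control and 1.61 in the rescue, where the others had at most 1.03 and 1.22. At 2617 the control libraries read 0.410, 1.10, 1.32 and 1.04 points and the NME6 KO libraries 0.318, 1.06, 1.01 and 0.940. The knockdown read 1.06, 1.16 and 1.4999 points and the rescue 1.21, 1.24 and 1.17. The first control and NME6 KO replicates were the lowest, and the rescue libraries lay above all 4 NME6 KO libraries. The same held at 2614, 2615 and 2616. With all libraries, 4 of the 14 tested bases were thus higher in the rescue than in the NME6 KO without overlap. All were from this run, and none of the 14 was lower. Over all tested positions 8.05% were higher and 11.4% lower. Without NME6 KO replicate 1 the rescue also lay below the NME6 KO at positions 1975, 2141 and 3108. The rescue read at most 0.888, 1.04 and 1.09 points there, and the remaining NME6 KO libraries at least 1.71, 1.08 and 1.22. Against control, with all libraries, 1 of the 14 was higher, position 2615. It read 1.63, 1.66 and 1.54 points in the rescue and at most 1.46 in control. None was lower, where 7.38% of all tested positions were higher and 8.05% lower. Without control replicate 1 the rescue also lay below control at positions 1975 and 2141. In the run 2614 to 2617 the 4 differences between the rescue and the NME6 KO were 0.331, 0.659, 0.415 and 0.377 points. None passed (limma adjusted p = 0.553, 0.385, 0.606 and 0.550).

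The ribose-methylated bases read near 0. Position 2815 (base 1145), a target of MRM1 in the loop that holds the P-site tRNA, ranged from -0.0132 to 0.143 points over the 14 libraries. Positions 3039 and 3040 (bases 1369 and 1370), targets of MRM2 and MRM3 in the loop that holds the A-site tRNA, lie 28 and 27 bases before the RPUSD4 site. At position 3039 the control libraries read 0.0652, 0.0643, 0.0897 and 0.129 points and the knockdown libraries 0.0418, 0.000665 and 0.0168. The NME6 KO libraries read 0.0901, 0.156, 0.283 and 0.0781 points there and the rescue libraries 0.0128, 0.0127 and 0.0507. Position 3040 read 0.118, 0.129, 0.0898 and 0.116 points in control, 0.0898, 0.208, 0.258 and 0.0908 in the NME6 KO and 0.0280, 0.0141 and 0.00188 in the knockdown. Its rescue libraries read 0.0641, 0.114 and 0.0891 points. At both bases the knockdown lay below all control libraries, and at position 3039 the rescue did too. These levels were far under the filter, so neither base was among the 149 tested. Of the 2541 mitochondrial positions with a value other than 0 in every library, 4.53% were lower without overlap in the knockdown than in control. In the rescue 12.8% were lower than control in this way.

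Of the bases of 16S rRNA with a value other than 0 in every library, 0.878% to 6.30% separated the groups in a given comparison and direction. The separations below were not recounted without the 2 first replicates. Apart from the site, 683 bases of 16S rRNA differed from 0 in all 14 libraries, of 2541 such positions in the mitochondrial genome. Of these 683, 22 (3.22%) were higher and 40 (5.86%) lower in every knockdown library than in every control library, where 4.41% and 4.53% of all 2541 were. In the NME6 KO against control 6 (0.878%) were higher and 12 (1.76%) lower, where 1.97% and 2.32% of all were. The rescue differed from the NME6 KO at 43 bases (6.30%) upward and 27 (3.95%) downward, and from control at 35 (5.12%) upward and 26 (3.81%) downward. Over all 2541 positions the rescue was higher at 5.19% and lower at 12.9% than the NME6 KO, and higher at 4.21% and lower at 12.8% than control. The downward shares in 16S rRNA were thus below those of the whole mitochondrial genome in the rescue comparisons; this difference was not tested. The median difference over the 683 bases was -0.00662, -0.00405, -0.00801 and -0.00853 points in the 4 comparisons in this order, and over all 2541 positions 0.00517, 0.0129, -0.0690 and -0.0581 points.

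The share of bases listed at 0 varied along the RNA. In the first 100 bases, 64.0% of positions on average were listed at 0 in control, 71.8% in the NME6 KO and 75.7% in the knockdown, but 32.0% in the rescue. There the rescue libraries ranged from 27% to 38%, and all others from 60% to 80%. In the last 59 bases the shares were 50.8%, 56.4%, 66.1% and 53.1% in the same order. Between them the window of bases 701 to 800 had the lowest share in control, the NME6 KO and the rescue (6.25%, 7.25% and 5.67%), and the window of bases 601 to 700 in the knockdown (10.7%). The window of bases 1301 to 1400 without the site had 15.2% of bases at 0 in control, 16.7% in the NME6 KO, 26.9% in the knockdown and 11.4% in the rescue, and its mean level was 0.152, 0.155, 0.120 and 0.164 points. The knockdown thus had more bases at 0 around the site than control and the rescue fewer, and this was not particular to that window. Over all other bases of 16S rRNA, 27.5% were at 0 on average in the knockdown, 21.5% in control and 15.7% in the rescue. The part of these zeros in the differences at the site was not tested.

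**Figure D5:**
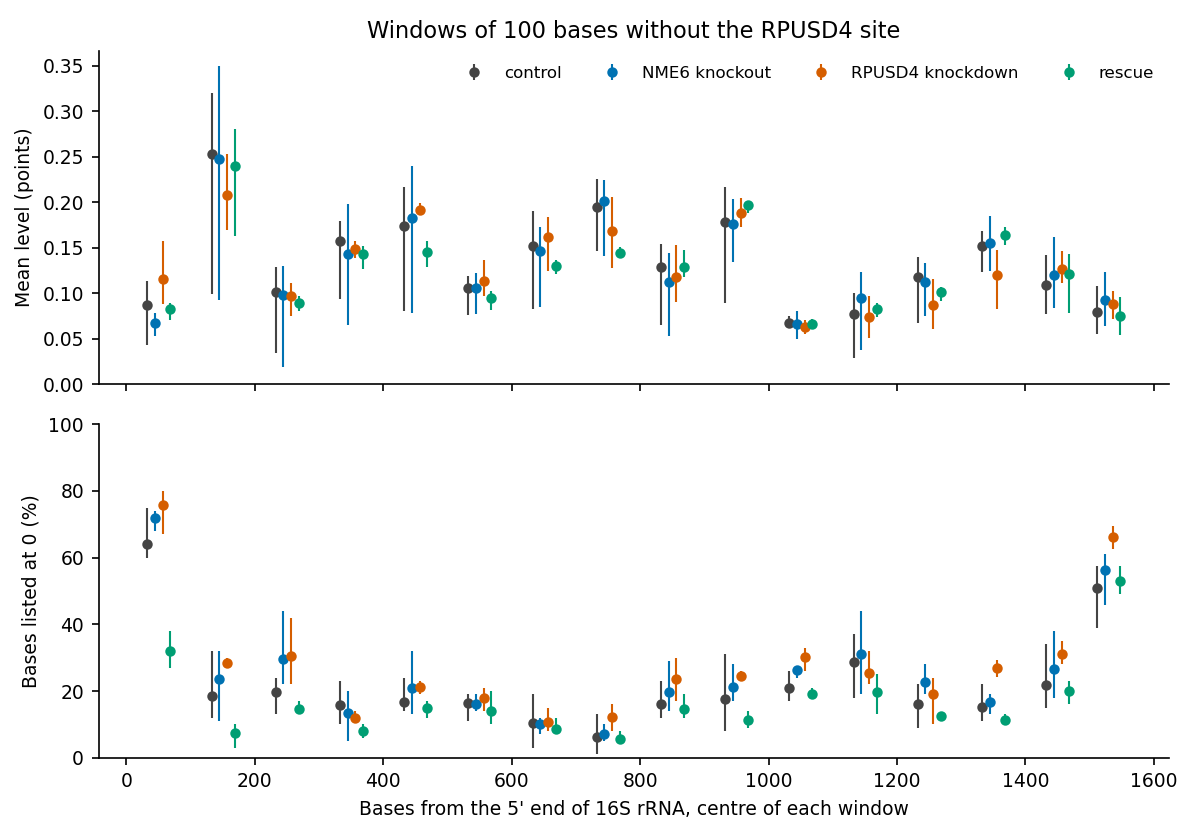
Mean level in percentage points (top) and percentage of bases listed at 0 (bottom) in windows of 100 bases along 16S rRNA, the last of 59, without the RPUSD4 site; points are group means and bars run from the lowest to the highest library. Both ends of the RNA hold the most zeros, and in the first window the rescue libraries (27% to 38%) lie below all others (60% to 80%).

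Levels below 0, where the untreated value exceeded the CMC value, were found at 2.25% to 6.80% of the other bases in a library. Their number was 86, 40, 45 and 47 bases in control, 87, 35, 55 and 51 in the NME6 KO, 63, 80 and 106 in the knockdown and 41, 44 and 56 in the rescue. The first control and NME6 KO replicates exceeded 2 of the 3 knockdown libraries. All 18 pairs of libraries from 1 group shared identical negative values within 16S rRNA, at 9 to 33 bases (median 13), and none of the 73 pairs from different groups did. The libraries of a group thus seem to share 1 subtracted untreated profile, whose error is not part of the spread between replicates at the site or elsewhere.

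The lowest base was position 3107 (base 1437), 40 bases after the RPUSD4 site. In the revised Cambridge reference of the human mitochondrial genome this position is a placeholder that keeps the historical numbering and stands for no base. It read -0.108, -6.29, -5.50 and -5.28 points in control, 1.36, -4.90, -3.56 and -4.74 in the NME6 KO, -1.79, -1.68 and -2.27 in the knockdown and 0.259, 1.61 and -1.84 in the rescue. It was the lowest base of the RNA in 10 of the 14 libraries. The next base, position 3108, was among the tested ones and read 0.613 to 1.61 points over the 14 libraries, with no call. With position 3107 left out of the mean over the other bases, the site minus that mean differed by -5.05, 0.489, 7.63 and 8.12 points in the 4 comparisons, nearly as with it. Of the 9 other bases among the 10 lowest means, 6 lay within the first 7 bases of the RNA. Positions 1675, 1676 and 1677 were 0 in all other groups and -0.0938, -0.0906 and -0.0855 points in each of the 3 rescue libraries.

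The tested positions whose levels followed the site most closely over the 14 libraries lay outside 16S rRNA. They were positions 6043 and 6044 (bases 140 and 141 of COX1, the mRNA of a cytochrome c oxidase subunit; Pearson r = 0.791 and 0.763) and position 3285 (base 56 of TRNL1, the tRNA gene that follows RNR2; r = 0.643). Position 6043 averaged 0.973 points in the knockdown, 0.728 in control, 0.761 in the NME6 KO and 3.54 in the rescue. Position 6044 averaged 0.750, 0.498, 0.556 and 3.38 points in the same order. Both COX1 positions were under 1 point on average in every group but the rescue, and so passed the filter only through it. The site was highest in the rescue too, so r at these positions does not measure likeness apart from that group. Position 3285 averaged 1.60 points in the knockdown, 2.03 in control, 1.34 in the NME6 KO and 4.96 in the rescue. The knockdown mean was thus above control at both COX1 positions and below it in TRNL1. Among the 14 other tested bases of 16S rRNA, r with the site ran from -0.503 at position 2141 to 0.198 at position 2615. These correlations describe 14 libraries that form 4 groups, and no p is given.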

How the data were processed

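Profiles of 14 CMC-treated libraries were used; 6 untreated samples entered only through the subtraction. The authors deposited 1 signed score (header: delta) for each position from 2 to 16571, with no count, base or separate untreated value. Trimmomatic, STAR and SAMtools (no versions) and GRCh38 are listed in the submitters' processing notes; the step that called altered reads is not. RNR2 was taken from RefSeq's coordinates, and bases were numbered from its start. No sequence of 16S rRNA was used here.

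Scores were tested as given with limma 3.58.1 in R 4.3.3 (empirical Bayes with trend, all 14 libraries in 1 fit, two-sided, Benjamini-Hochberg, threshold 0.05) at positions with a mean of 1 or more. The step was tested on simulated data with independent normal noise at each position and library. Those data held no shared untreated profile and no libraries that stood apart, so that test does not cover these features. Values per library were compared by exact two-sided permutation tests (scipy 1.17.1). Tables and plots were made with pandas 2.3.3, numpy 2.4.6 and matplotlib 3.10.9 in Python 3.11.15. Alternatives were other filters, scalings, weights, a replicate block and omissions of libraries. Named positions were the site and 5 bases on each side, the 4 other known modified bases, the 10 highest in control, the 10 lowest, those called, the 3 largest differences per comparison and the 3 most alike. The members and lists were chosen with earlier results of these data known.

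Replicate numbers are shared between groups. For the NME6 KO against control the deviations of same-numbered libraries correlated at 0.471, 0.286, 0.193 and 0.116. The highest correlations with another number were -0.340, 0.246, 0.159 and 0.121, so replicate 4 was not closest to its own number. The widest lead was that of the first replicates, the 2 libraries that stood apart. A pairing by number is thus not settled by the data, and the labels give none. Without depth, counting intervals could not be computed.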

Additional observations from a re-analysis of the deposited data

Results flagged for a closer look

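In groups of 4, a library was marked where its gap to the nearest other took up more of the group's range than Dixon's 95% critical value allows. Of 96 such groups tested 13 were marked, 6 of them in control replicate 1 and 5 in NME6 KO replicate 1. The chance rate of about 1 in 20 does not apply to this count. Some groups held only zeros and could not be marked, and others shared libraries, bases or subtracted values. In control replicate 1 the mean over the other 1558 bases of 16S rRNA was 0.0771 points (0.152 to 0.156 in the other 3), the mean over the 14 other tested bases 0.531 points (1.27 to 1.33), and the share of the positive levels held by the RPUSD4 site 10.3% (5.23% to 6.02%). The same library read 0.315 points at position 2599 (1.28 to 1.45), 0.615 at position 2615 (1.39 to 1.46) and -0.108 at position 3107 (-6.29 to -5.28). In NME6 KO replicate 1 the share at the site was 12.5% (5.52% to 5.63% in the other 3). That library read 0.487 points at position 2614 (0.963 to 0.994), 0.318 at position 2617 (0.940 to 1.06), 0.897 at position 3108 (1.22 to 1.26) and -0.0155 at position 2926, where the other 3 shared the value -0.0507. Control replicate 2 was marked at position 2396, with 0.0759 points where the other 3 were at 0, and at position 2926, with 0.000630 points where the others shared -0.0127. The level at the site itself was marked in neither group.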

How the results depend on the processing

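For the RPUSD4 site in the knockdown, the direction held under all 17 alternatives and 8 of them passed (limma adjusted p from 0.00710 to 0.720). It did not pass with a mean of 0.5 or more, a median of 1 or more, or only the 2 groups in the fit (-5.06 points each; limma adjusted p = 0.119, 0.0603 and 0.720), with libraries scaled by their mean over untested positions (-5.58 in those units; 0.624), or with a replicate block (-5.17 points; 0.161), and these 5 settings left 0 positions of 16S rRNA called. Leaving out 1 library gave -5.37 to -4.67 points and 0 to 1 called. Its replicate numbers do not pair the libraries (same-number r of -0.251, -0.000603 and -0.172), nor do those of the rescue comparisons. With the block no call changed for the NME6 KO against control. With no level filter 5, 1, 11 and 8 of 1525 bases of 16S rRNA were called. The order is knockdown and NME6 KO against control, rescue against the NME6 KO and rescue against control. Over all 14928 positions then tested, 36, 72, 156 and 103 were called in the same order. In the rescue comparisons the calls in 16S rRNA included positions 1675 to 1677, which were at 0 in all other groups. Scaled, the rescue differed by 12.02 and 13.1 at the site (limma adjusted p = 0.113 and 0.151) with 0 called; library weights, or leaving out both first replicates, gave 2 each. The NME6 KO difference at the site ranged from -0.310 to 1.10 points over single omissions and was -0.496 without both first replicates; against the other bases it ranged from -0.328 to 1.11. The difference in the mean over the other bases changed sign under some alternatives. Over the last 300 bases it was 0.00571 for the NME6 KO and 0.00130 for the rescue, both against control; as a median of values other than 0 it was 0.00211, 0.00662 and 0.00281 for the knockdown, the NME6 KO and the rescue against control; and with a replicate block (sign flips over 3 pairs) 0.00229 for the knockdown. Single omissions gave -0.0236 to 0.00308 for the knockdown, -0.0204 to 0.0176 for the NME6 KO, -0.0257 to 0.00332 for the rescue against the NME6 KO and -0.0274 to -0.00102 for the rescue against control, where the sign held. Without position 3107, an alternative chosen after seeing the data, no direction changed. The causes were not tested.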
